A study of Mus musculus with 48 samples.

Results

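The BCL2 family is a group of related proteins that decide whether the outer mitochondrial membrane is opened in apoptosis. Expression of 10 of its genes was measured by RNA-Seq in murine striatal progenitor cells, across 16 conditions with 3 samples each. The 10 genes were chosen by name from the 27281 genes of the table, with earlier results of these data known. They are the anti-apoptotic genes Bcl2, Bcl2l1, Bcl2l2 and Mcl1, the effector Bak1, and the BH3-only genes Bid, Bad, Bcl2l11, Bmf and Bik. Each of the 10 had 1 row, and 9 of them passed the filter on low values. Bik, with condition means between 0.29 and 0.50 on the table's log2 scale, did not pass.

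In the mitochondrial pathway of apoptosis, anti-apoptotic proteins such as BCL2, BCL-XL (the product of Bcl2l1), BCL-W (Bcl2l2) and MCL1 hold the effectors BAK1 and BAX in check. BH3-only proteins report damage or lost survival signals. BIM (Bcl2l11), BID and BIK bind anti-apoptotic partners and, for BIM and BID, can also engage effectors, while BAD and BMF act mainly as sensitizers that occupy anti-apoptotic proteins. Transcription of Bcl2l11 and Bmf is well known to rise when growth factors are withdrawn or cells detach, and FOXO factors are known to act on Bcl2l11. The activity of these proteins is also set by splicing, phosphorylation, cleavage and turnover, which RNA abundance per gene does not show.

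Both cell lines carry the strain label C57BL/6 and were conditionally immortalized. STHdhQ7 cells are wild type and STHdhQ111 cells carry the mutant huntingtin allele in homozygous form, and each genotype is represented by 1 line, so genotype and line cannot be told apart. All cells were grown at 33 °C, and every group, the controls included, was then held for 24 hours in serum-free medium. The groups were STHdhQ7 cells with vehicle, STHdhQ111 cells with vehicle (DMSO), and STHdhQ111 cells with each of 14 compounds. Cyproheptadine, loxapine, meclizine, diacylglycerol kinase inhibitor II (DKI) and selisistat were given at 10 µM, pizotifen at 5 µM and cysteamine at 250 µM. Sodium butyrate was given at 1 mM and 4-deoxypyridoxine (DOP) at 4 mM. Fingolimod phosphate was given at 250 nM, trichostatin A (TSA) at 10 nM, nortriptyline at 1 nM, and nicotinamide and haloperidol at 0.5 nM. From its metabolite profiles the study placed cyproheptadine with loxapine and pizotifen as Group A. It placed DKI with meclizine as Group B. These 5 compounds had also formed 1 cluster in the gene expression data described here, so a pattern that the 5 share is not independent of how they were put together. The labels do not say whether the 3 samples of a condition were separate cultures, so p-values measure only the spread between these samples.

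Values are the authors' normalized log2 abundances, and a difference is given on that log2 scale. The read depth behind them is unknown. The correlation between samples of 1 condition lay between 0.996 and 0.999. Of 9 neural progenitor markers, 8 were in the table and Vim was high with a mean of 15.4, whereas the neuronal markers Rbfox3 (mean -2.13) and Drd1 (mean -2.18) and the microglial marker Aif1 (mean -2.18) were near the floor of the table. Collagen genes of the fibroblast list were high (Col1a1, mean 14.5), and Ptprc, a blood cell marker, had a mean of 10.2, so the labelled identity was not borne out by all markers.

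The BH3-only genes Bmf and Bcl2l11 had the largest differences with compounds, and Bcl2 and Bcl2l1 the largest between the lines. Bmf fell with all 5 compounds of Groups A and B, to between 50.6% and 68.0% of the STHdhQ111 vehicle level, and Bcl2l11 also fell with those 5. Mcl1 rose with the 3 Group A compounds. Across 9 tested members and 14 compounds, 26 of 126 comparisons were called at an adjusted p under 0.05 (limma with Benjamini-Hochberg adjustment over 13409 genes), or 20.6%, beside 17% of all gene-by-compound comparisons. Calls of a higher level numbered 7, or 5.56% beside 7.95% for all genes, and calls of a lower level 19, or 15.1% beside 9.05%. All 14 comparisons use the same 3 vehicle samples and so are not independent.

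**Figure D1:**
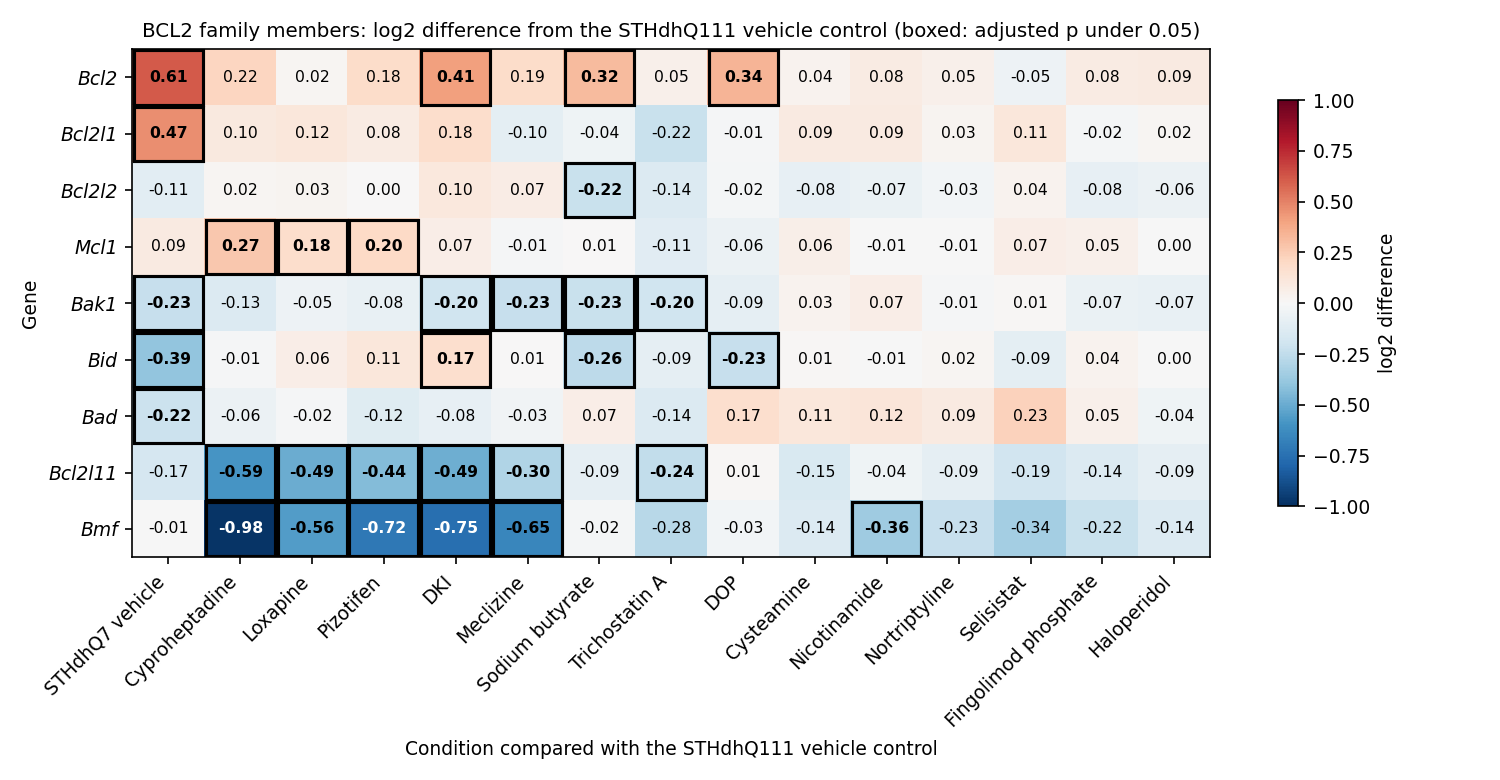
Colour and number in each cell give the fitted log2 difference of a gene (rows) in a condition (columns) from the STHdhQ111 vehicle control, and boxes mark an adjusted p under 0.05. The Bmf row runs from -0.98 to -0.56 under the Group A and Group B compounds and the Bcl2l11 row from -0.59 to -0.30, and the STHdhQ7 column has its largest rises at Bcl2 (0.61) and Bcl2l1 (0.47).

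The number of members called differed between compounds. DKI had 5 of 9 called, where 42.3% of all tested genes were called. Sodium butyrate had 4 of 9 beside 37.5% of all genes. Cyproheptadine, loxapine, pizotifen and meclizine had 3 each, beside 35.6%, 21.9%, 17.9% and 26.8% of all genes. DOP had 2 beside 20.1%, TSA had 2 beside 13.1%, and nicotinamide had 1 beside 10.4%. No member was called with cysteamine, nortriptyline, selisistat, fingolimod phosphate or haloperidol, for which 7.83%, 3.83%, 0.515%, 0.0597% and 0% of all genes were called. The share of members called lay above the background for some compounds and below it for others, and with 9 genes the counts alone do not set the family apart.

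Among the anti-apoptotic genes, Bcl2, the founding member of the family, lies on chromosome 1 from 106538178 to 106714274 on the minus strand (GRCm38, as are all positions of genes below). In the STHdhQ111 vehicle samples its log2 abundance was 6.18, 6.06 and 5.98. DKI samples had 6.49, 6.36 and 6.59, DOP samples 6.40, 6.33 and 6.51, and sodium butyrate samples 6.31, 6.43 and 6.43. Every sample of these 3 compounds lay above every vehicle sample. The rise was 0.41 with DKI (standard error 0.090, adjusted p = 0.000301), 0.34 with DOP (standard error 0.089, adjusted p = 0.00571) and 0.32 with sodium butyrate (standard error 0.089, adjusted p = 0.00471). With cyproheptadine the difference was 0.22 and missed the threshold (adjusted p = 0.0571). Samples of cyproheptadine (6.20, 6.29 and 6.38) did not overlap the vehicle samples, and the difference passed the threshold without vehicle replicate 1 (0.27, adjusted p = 0.0394). The fitted difference was above 0 for 13 of 14 compounds, selisistat being the exception. All 14 share the same vehicle samples, whose mean of 6.07 ranked 15 from the highest of the 16 conditions, so these signs are not independent. In the order of the 16 conditions, STHdhQ7 vehicle stood apart at the top (6.69 ± 0.093, SD, n = 3), and all other neighbours overlapped.

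Mcl1 encodes a short-lived anti-apoptotic protein. It lies on chromosome 3 from 95658788 to 95663176 on the plus strand. Vehicle samples had 10.67, 10.71 and 10.63, and cyproheptadine samples had 11.03, 10.87 and 10.91. Pizotifen samples had 10.89, 10.88 and 10.85, and loxapine samples 10.95, 10.74 and 10.86. Each Group A sample was above each vehicle sample, although 1 loxapine sample was close to the highest of them. The rise was 0.27 with cyproheptadine (standard error 0.054, adjusted p = 0.000144), 0.20 with pizotifen (standard error 0.053, adjusted p = 0.00715) and 0.18 with loxapine (standard error 0.053, adjusted p = 0.015). The loxapine call was lost without vehicle replicate 1 or 3 or loxapine replicate 1 or 3 (adjusted p of 0.0537, 0.0622, 0.14 and 0.0516). With DKI and meclizine of Group B the differences were 0.07 (adjusted p = 0.346) and -0.01 (adjusted p = 0.937), with 95% intervals of -0.04 to 0.18 and -0.12 to 0.10. TSA had the lowest mean of all conditions (10.56 ± 0.073, SD, n = 3), though its difference of -0.11 was not called (adjusted p = 0.158).

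Bcl2l1 (chromosome 2, 152780668 to 152831728, minus strand) makes the anti-apoptotic BCL-XL and a shorter pro-apoptotic form by splicing, which are summed here. It was called with none of the 14 compounds. Its differences from vehicle ran from -0.22 with TSA, which was just outside the threshold (adjusted p = 0.0545), to 0.18 with DKI. Bcl2l2 (chromosome 14, 54883377 to 54888234, plus strand), encoding BCL-W, fell with sodium butyrate only, by 0.22 (standard error 0.069, adjusted p = 0.0108). The 3 sodium butyrate samples (8.07, 8.02 and 8.04) were below all vehicle samples (8.31, 8.34 and 8.14). This call was lost without vehicle replicate 1 (adjusted p = 0.0573) or 2 (adjusted p = 0.0801). Bcl2l2 shares 594 of its 4462 exonic bases with a coding gene model on the same strand, Gm20521, so reads there could be assigned to either.

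**Figure D2:**
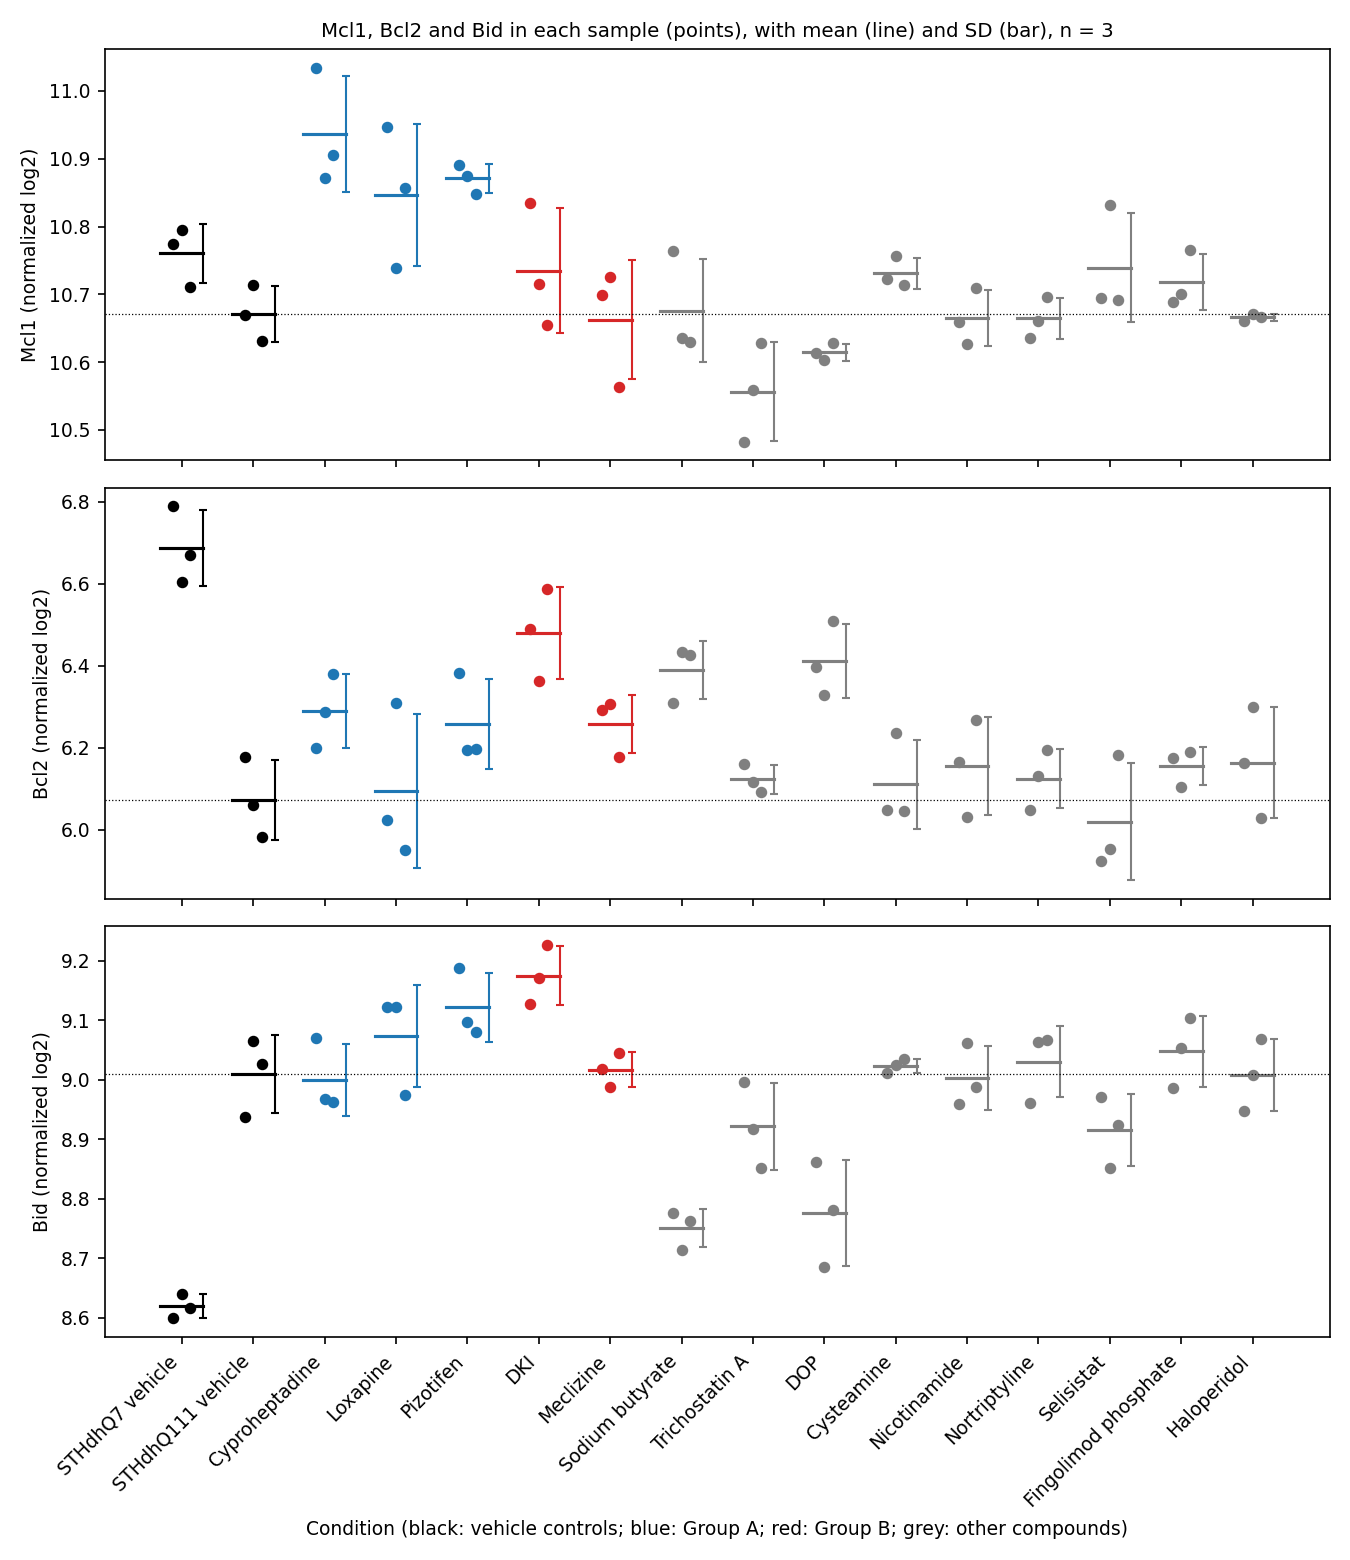
Points are the normalized log2 abundances of Mcl1, Bcl2 and Bid in each of 48 samples (vertical axes), by condition (horizontal axis), with the mean (line) and SD (bar) of 3 samples and a dotted line at the STHdhQ111 vehicle mean. Mcl1 was highest in the 3 Group A conditions, Bcl2 was highest and Bid lowest in STHdhQ7 cells, and Bid was also low with sodium butyrate (8.75) and DOP (8.78).

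Bak1 encodes the effector that forms pores in the outer mitochondrial membrane. It lies on chromosome 17 from 27019810 to 27029009 on the minus strand. Vehicle samples had 9.35, 9.35 and 9.53, of which replicate 3 stood above the others. Bak1 fell with meclizine by 0.23 (adjusted p = 0.00265), with sodium butyrate by 0.23 (adjusted p = 0.0023), with TSA by 0.20 (adjusted p = 0.0166) and with DKI by 0.20 (adjusted p = 0.00551), each with a standard error of 0.058 or 0.059. Samples of meclizine (9.16 to 9.20) and TSA (9.18 to 9.25) did not overlap the vehicle samples, and neither did those of DKI (9.15 to 9.28) or sodium butyrate (9.09 to 9.31). Without vehicle replicate 3, the difference with DKI was -0.13 (adjusted p = 0.103) and that with TSA -0.14 (adjusted p = 0.147), and both calls were lost. The TSA call was also lost without TSA replicate 2 (adjusted p = 0.0547) or 3 (adjusted p = 0.0555). Of its 2407 exonic bases, Bak1 shares 614 with Ggnbp1 on the other strand. The library kit keeps the strand, but whether the counting used it is not given in the sources used here.

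Among the BH3-only genes, Bmf links loss of attachment and of survival signals to BCL2 proteins. It lies on chromosome 2 from 118528757 to 118549687 on the minus strand. Its log2 abundance was 7.13, 7.04 and 6.87 in the STHdhQ111 vehicle samples. Cyproheptadine samples had 6.06, 6.05 and 5.98, loxapine samples 6.44, 6.50 and 6.43, and pizotifen samples 6.18, 6.29 and 6.42. DKI samples had 6.07, 6.38 and 6.32, and meclizine samples 6.32, 6.24 and 6.52. All 15 samples of the 5 compounds lay below the lowest vehicle sample.

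The fall of Bmf was deepest with cyproheptadine, at -0.98 (standard error 0.11, adjusted p = 1.35e-08), or 50.6% of the vehicle level when taken back to a linear scale. It was -0.75 with DKI (adjusted p = 7.7e-07), -0.72 with pizotifen (adjusted p = 1.49e-05), -0.65 with meclizine (adjusted p = 2.27e-05) and -0.56 with loxapine (adjusted p = 0.000349), with a standard error of 0.11 in each. Leaving out any 1 sample of the vehicle group or of these compounds left all 5 calls in place. Nicotinamide samples had 6.76, 6.71 and 6.50, a fall of 0.36 (adjusted p = 0.0328). That call was lost without vehicle replicate 1 or 2 (adjusted p of 0.201 and 0.108) and without nicotinamide replicate 2 or 3 (adjusted p of 0.0831 and 0.162). Selisistat samples had 6.73, 6.67 and 6.62, and their difference of -0.34 was of like size but was not called (adjusted p = 0.126). The fitted difference was below 0 for all 14 compounds, and the shared vehicle samples had the highest mean of the 16 conditions.

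The level of Bmf with the 5 compounds was set beside that with the other 9. The 15 samples of Groups A and B ran from 5.98 to 6.52, and the 27 samples of the other compounds from 6.50 to 7.06. Of the 15, 14 were below the lowest of the 27, a nicotinamide sample. Such counts of samples, against other compounds or against vehicle, were not made over all genes. How common a separation like this is was therefore not tested, and it does not set Bmf apart. In the order of conditions from the highest mean, STHdhQ111 and STHdhQ7 vehicle came first and overlapped. A gap between neighbours lay between nicotinamide and loxapine, and another between DKI and cyproheptadine, which had the lowest mean (6.03 ± 0.042, SD, n = 3). All other neighbours overlapped.

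Bcl2l11 encodes BIM, a BH3-only protein that binds all main anti-apoptotic partners. It lies on chromosome 2 from 128126038 to 128162547 on the plus strand, and its splice forms are summed in the table. Vehicle samples had 8.64, 8.38 and 8.36, and replicate 1 was the highest of all 48 samples. Cyproheptadine samples had 7.72, 8.01 and 7.87, loxapine samples 7.91, 8.06 and 7.93, and pizotifen samples 8.07, 8.09 and 7.92. DKI samples had 7.81, 8.08 and 8.01, and meclizine samples 8.13, 8.18 and 8.18. None of these 15 samples reached the lowest vehicle sample, and meclizine came closest to it.

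Bcl2l11 fell by 0.59 with cyproheptadine (standard error 0.079, adjusted p = 2.5e-07), or to 66.4% of the vehicle level. It fell by 0.49 with loxapine (adjusted p = 1.67e-05), by 0.49 with DKI (adjusted p = 2.89e-06), by 0.44 with pizotifen (adjusted p = 0.00012) and by 0.30 with meclizine (adjusted p = 0.00355), each with a standard error of 0.078 or 0.079. The 4 first calls held when any single sample was left out, while the meclizine call was lost without vehicle replicate 1 (-0.20, adjusted p = 0.0812). The fall with TSA, 0.24 (adjusted p = 0.0325), was lost without the same vehicle sample (-0.15, adjusted p = 0.318) and without TSA replicate 1 or 2 (adjusted p of 0.146 and 0.129). Of the 15 samples of Groups A and B, 12 were below the lowest of the 27 samples of other compounds, which ran from 8.11 to 8.51. As for Bmf, this count has no share over all genes to stand beside it. The single gap in the order of conditions lay between meclizine and pizotifen.

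**Figure D3:**
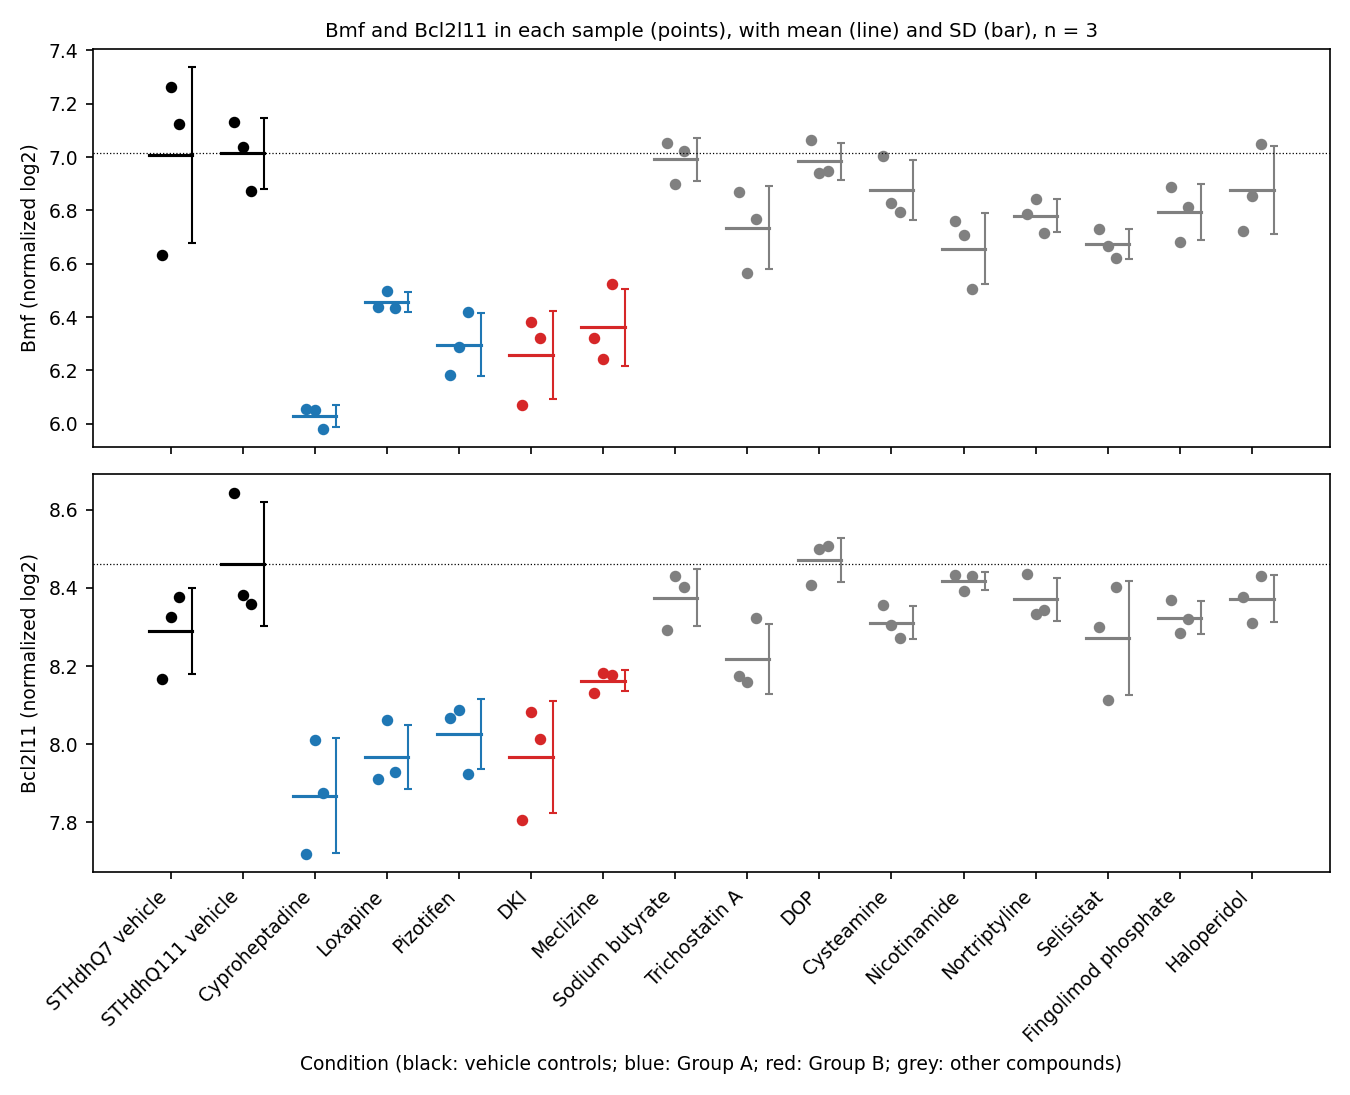
Points are the normalized log2 abundances of Bmf (upper panel) and Bcl2l11 (lower panel) in each sample, by condition, with the mean (line) and SD (bar) of 3 samples and a dotted line at the STHdhQ111 vehicle mean. All Group A (blue) and Group B (red) samples lie below all STHdhQ111 vehicle samples in both panels, with Bmf lowest under cyproheptadine.

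Of all tested genes, 538 (4.01%) were called lower with all 5 compounds, Bmf and Bcl2l11 among them, and 399 (2.98%) were called higher with all 5. Each of the pair was called lower with 6 of the 14 compounds, as were 5.94% of all tested genes with 6 or more. Over the 16 condition means, with the collection day removed, Bmf and Bcl2l11 had a Pearson r of 0.897, and 0.919 without STHdhQ7. All conditions but 1 share a cell line, and the value is a description. Fibroblast markers moved with some of the same compounds. Of 5 tested, 4 fell with cyproheptadine, DKI and meclizine, 2 with pizotifen and 0 with loxapine. Their summed linear level was 38460 to 43800 in vehicle, 25660 to 29000 with cyproheptadine, 20790 to 25150 with DKI, 28080 to 28620 with meclizine and 31950 to 34740 with pizotifen. With loxapine it was 35750 to 40260, overlapping vehicle, where Bmf fell by 0.56 and Bcl2l11 by 0.49. Fewer cells of a type and less RNA per cell cannot be told apart in bulk samples.

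**Figure D4:**
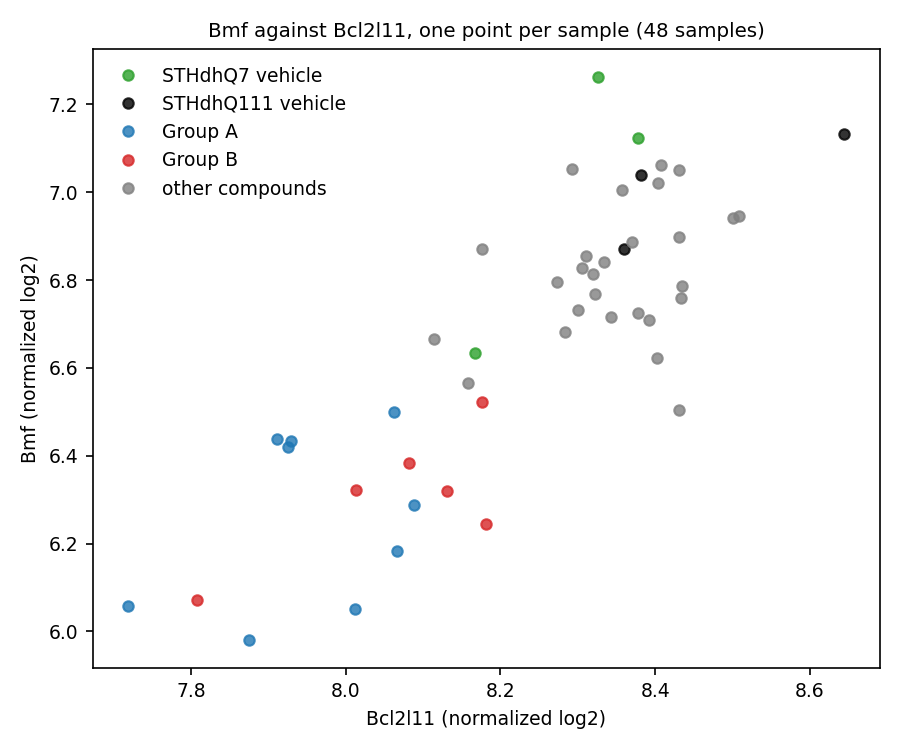
Each point is 1 of 48 samples, with its Bcl2l11 (horizontal axis) and Bmf (vertical axis) normalized log2 abundance. Group A and Group B samples occupy the lower left, at 7.72 to 8.18 for Bcl2l11 and 5.98 to 6.52 for Bmf, and the other compounds and the vehicle controls the upper right.

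The sequences before the start sites of these genes are shown because both fell with the same compounds. They were taken from RefSeq on GRCm38.p6, which held entries for 9 of the 10 members, and run 250 bases up to the start, 5′ to 3′ on the strand of the gene. Bcl2l11 is at chr2:128125788-128126037 (plus strand), Bmf at chr2:118549687-118549936 (minus strand) and Mcl1, which rose with Group A, at chr3:95658471-95658720 (plus strand). Capitals mark matches, on either strand, to the motifs searched, which were GTAAACA (FOXO), TGATGNAA (ATF4 with C/EBP), GGGCGG (GC box), TGACGT (CRE core) and CACGTG (E-box).
Bcl2l11: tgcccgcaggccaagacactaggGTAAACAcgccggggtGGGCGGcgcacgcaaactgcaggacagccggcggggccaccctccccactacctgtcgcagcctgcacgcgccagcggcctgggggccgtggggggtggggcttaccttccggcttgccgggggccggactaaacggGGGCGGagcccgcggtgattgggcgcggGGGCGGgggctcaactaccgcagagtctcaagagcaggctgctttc
Bmf: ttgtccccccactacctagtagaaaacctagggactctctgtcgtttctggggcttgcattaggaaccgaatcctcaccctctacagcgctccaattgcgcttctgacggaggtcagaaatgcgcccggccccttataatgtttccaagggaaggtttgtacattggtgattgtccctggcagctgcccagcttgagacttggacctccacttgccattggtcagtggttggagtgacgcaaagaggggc
Mcl1: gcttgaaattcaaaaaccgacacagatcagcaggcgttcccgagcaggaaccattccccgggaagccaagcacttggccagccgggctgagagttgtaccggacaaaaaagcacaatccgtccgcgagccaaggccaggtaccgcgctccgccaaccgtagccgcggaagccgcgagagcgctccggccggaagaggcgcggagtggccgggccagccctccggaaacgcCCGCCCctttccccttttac
The Bcl2l11 window held 1 match to GTAAACA and 3 to GGGCGG, none overlapping another. That of Mcl1 held 1 match to GGGCGG, on the opposite strand, and that of Bmf held no match to any of the 5. Among 32851 mouse windows of this length, 3.17% held GTAAACA, 3.45% TGATGNAA, 32.7% GGGCGG, 6.47% TGACGT and 6.02% CACGTG. The GC content was 72.0% for Bcl2l11, 54.0% for Bmf and 64.4% for Mcl1, where the median window had 52.4%. The matches are descriptions of the letters and not evidence of binding. RefSeq lists 3 start sites for Bmf and 2 for Bcl2l11, of which 1 is shown, and the data do not tell which start was used.

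Bid encodes a BH3-only protein that is activated by cleavage. It lies on chromosome 6 from 120891930 to 120916853 on the minus strand. Vehicle samples had 8.94, 9.06 and 9.03, sodium butyrate samples 8.78, 8.71 and 8.76, and DOP samples 8.86, 8.69 and 8.78. Bid fell by 0.26 with sodium butyrate (standard error 0.052, adjusted p = 0.000146) and by 0.23 with DOP (standard error 0.052, adjusted p = 0.00136), and neither group overlapped vehicle. It rose by 0.17 with DKI (adjusted p = 0.00999), a call that was lost without vehicle replicate 1 (adjusted p = 0.076) or DKI replicate 3 (adjusted p = 0.0541). Bid shares 628 of its 3550 exonic bases with Bcl2l13, a family member on the other strand. Bcl2l13 also fell with sodium butyrate, by 0.13 (adjusted p = 0.0187), and with DOP, by 0.15 (adjusted p = 0.0189).

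Bad, whose product is held inactive by survival kinases, lies on chromosome 19 from 6941861 to 6951899 on the plus strand. It was called with no compound. Its largest difference, 0.23 with selisistat (adjusted p = 0.169), rested on samples of 9.27, 9.67 and 9.24. Bad shares 524 of 2558 exonic bases with Gpr137 on the other strand. Bik (chromosome 15, 83526862 to 83544634, plus strand) was not among the tested genes. With no filter on low values it was higher by 0.15 with sodium butyrate (adjusted p = 6.88e-05) and by 0.18 in STHdhQ7 (adjusted p = 7.28e-07), at levels near the bottom of the table. Sodium butyrate samples of Bik had 0.45, 0.57 and 0.39 where vehicle samples had 0.29, 0.32 and 0.36.

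The STHdhQ7 and STHdhQ111 lines with vehicle were compared to see how the family differs with genotype. Of the 9 tested members, 5 were called, 2 higher in STHdhQ7 and 3 lower, where 55.8% of all tested genes were called (29.2% higher and 26.6% lower). Bcl2 was 6.79, 6.61 and 6.67 in STHdhQ7 and thus above all STHdhQ111 vehicle samples, with a difference of 0.61 (standard error 0.089, adjusted p = 2e-07). Bcl2l1 was 9.37, 9.63 and 9.53 in STHdhQ7 beside 9.11, 8.98 and 9.03, a difference of 0.47 (standard error 0.078, adjusted p = 2.96e-06). The higher calls were thus both anti-apoptotic genes, and neither range overlapped.

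Of the pro-apoptotic genes, Bid was 8.60, 8.64 and 8.62 in STHdhQ7, lower by 0.39 on average (adjusted p = 3.53e-08). Bcl2l13, which overlaps Bid, was also lower in STHdhQ7, at -0.57 (adjusted p = 1.54e-13), and the part of shared reads was not tested. Bak1 was 9.16, 9.19 and 9.18 in STHdhQ7, a difference of -0.23 (adjusted p = 0.000784). Bad was 8.96, 8.96 and 8.90, a difference of -0.22 (adjusted p = 0.0328) that was lost without STHdhQ7 replicate 2 (adjusted p = 0.0538) or 3 (adjusted p = 0.102) or without STHdhQ111 replicate 3 (-0.12, adjusted p = 0.284). The remaining members were not called. Bcl2l2 differed by -0.11 (adjusted p = 0.187), Mcl1 by 0.09 (adjusted p = 0.156), Bcl2l11 by -0.17 (adjusted p = 0.0593) and Bmf by -0.01 (adjusted p = 0.958). The Bcl2l11 difference passed the threshold without STHdhQ7 replicate 3 (adjusted p = 0.031) or without STHdhQ111 replicate 2 (adjusted p = 0.0363) or 3 (adjusted p = 0.0301). Of 7 neural progenitor markers tested, 6 were higher in STHdhQ7, and the median log2 difference of the 7 was 1.03. The summed linear levels of the list, of which Vim makes up most, were 49280 to 55000 beside 42920 to 46910. The part of these markers in the differences was not tested. The 4 blood markers, almost all of whose sum is Ptprc, summed to 168.4 to 327.1 in STHdhQ7 beside 1419 to 1725 in STHdhQ111.

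**Figure D5:**
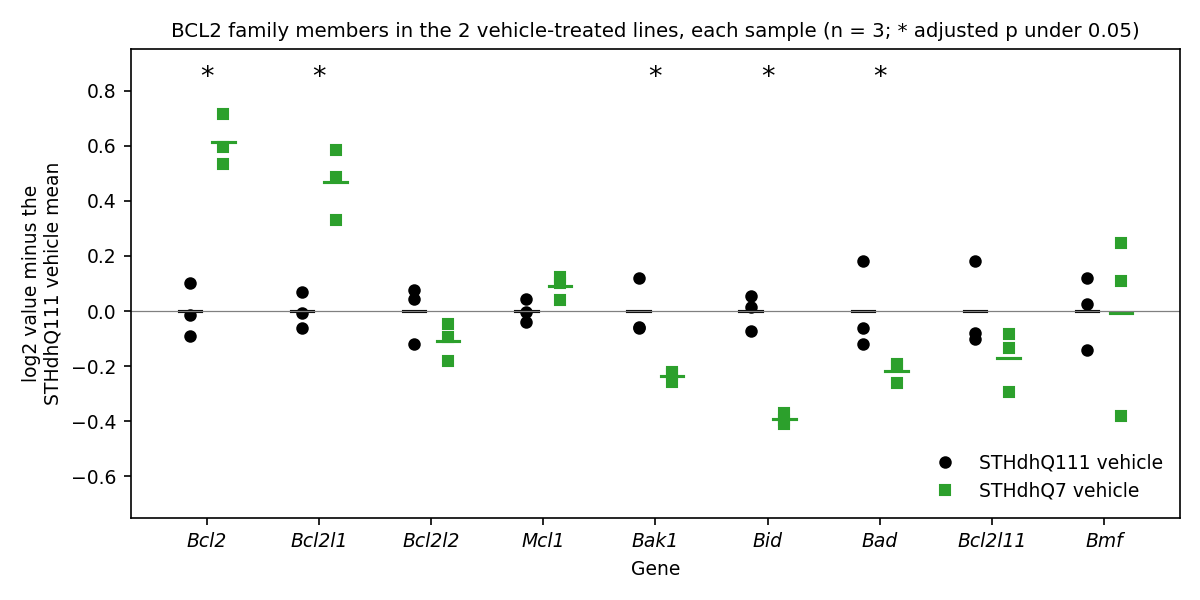
Each point is 1 vehicle sample of STHdhQ111 (black circles) or STHdhQ7 (green squares), plotted as its log2 value minus the STHdhQ111 vehicle mean of the gene, with short lines at the means (n = 3) and stars at an adjusted p under 0.05. Bcl2 and Bcl2l1 lie above 0 in every STHdhQ7 sample, Bak1, Bid and Bad below 0, and Bmf spreads from 6.63 to 7.26 on the original scale.

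Group A and Group B, whose compounds had been separated by metabolites, were compared directly, within the fit to all 48 samples. Group A held 3 compounds and Group B 2, with 3 samples each. The p-values rest on the spread between samples of a condition and leave out the spread between compounds of a group. Of 9 members, 3 were called, where 41.3% of all tested genes were. Mcl1 was higher in Group A (10.88 ± 0.080, SD, n = 9) than in Group B (10.70 ± 0.089, SD, n = 6), with a difference of 0.19 (standard error 0.034, adjusted p = 3.09e-05). Bak1 was also higher in Group A, by 0.13 (9.32 ± 0.048, n = 9, and 9.20 ± 0.047, n = 6, adjusted p = 0.00548). The difference of Bcl2 was -0.16 (adjusted p = 0.027) and was lost in 8 of the runs that left out a sample, with an adjusted p of up to 0.0954 without DKI replicate 3, and in a fit to the compared samples alone (adjusted p = 0.0548). By compound, mean Bcl2 was 6.29 with cyproheptadine, 6.26 with pizotifen and 6.09 with loxapine, beside 6.48 with DKI and 6.26 with meclizine. Meclizine of Group B thus lay among the Group A compounds. The ranges of the groups overlapped for all 3 genes. Bmf and Bcl2l11 were not called, with differences of -0.05 (95% interval -0.19 to 0.09) and -0.11 (95% interval -0.21 to -0.01). The Bcl2l11 difference passed the threshold in a fit to the compared samples alone (-0.11, adjusted p = 0.0498). It also passed without DKI replicate 1 (adjusted p = 0.0183), cyproheptadine replicate 2 (adjusted p = 0.0289) or loxapine replicate 2 (adjusted p = 0.0471).

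Compounds given at the same dose of 10 µM were compared in 3 pairs, in which 5 of 27 comparisons were called beside 12.5% of all gene-by-pair comparisons. P-values were adjusted over all genes within each pair. Cyproheptadine and meclizine differed in 3 members of 9 (18.8% of all genes). Mcl1 was higher with cyproheptadine by 0.28 (standard error 0.054, adjusted p = 0.000279). Bcl2l11 was lower by 0.29 (adjusted p = 0.0069) and Bmf lower by 0.33 (adjusted p = 0.034). Without cyproheptadine replicate 1, the adjusted p of Bcl2l11 was 0.0806 and that of Bmf 0.0651, and Bmf was also lost without cyproheptadine replicate 2 or 3 or meclizine replicate 1 or 3 (adjusted p of 0.0635, 0.1, 0.0563 and 0.267).

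Cyproheptadine and loxapine, both of Group A, differed in 1 of 9 members (10.5% of all genes). That member was Bmf, lower with cyproheptadine by 0.42 (standard error 0.11, adjusted p = 0.0106), with an adjusted p of 0.0505 without loxapine replicate 2. For Mcl1 the interval of their difference was -0.02 to 0.20, and for Bcl2l11 it was -0.26 to 0.06. DKI and meclizine, both of Group B, differed in Bcl2l1 alone of the 9 (8.11% of all genes), by 0.27 (standard error 0.079, adjusted p = 0.0236). This rested on DKI replicate 1 at 9.38, without which the difference was 0.19 (adjusted p = 0.282), and was also lost without meclizine replicate 2 (adjusted p = 0.0644) or 3 (adjusted p = 0.124).

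Cyproheptadine and pizotifen are close tricyclic analogs, in which a thiophene ring of pizotifen takes the place of a benzene ring of cyproheptadine, but they were given at 10 and 5 µM. Their differences from vehicle were -0.98 and -0.72 for Bmf, -0.59 and -0.44 for Bcl2l11, and 0.27 and 0.20 for Mcl1. Sodium butyrate and TSA both inhibit histone deacetylases and were given at 1 mM and 10 nM. Their differences were -0.23 and -0.20 for Bak1, which was called with both, 0.32 and 0.05 for Bcl2, and -0.26 and -0.09 for Bid. They were -0.09 and -0.24 for Bcl2l11. Because doses differed, these values were not compared.

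Other genes of the pathway were taken from lists. Their counts stand beside the shares of all tested genes called higher and lower, which were 17.5% and 18.2% with cyproheptadine, 20.4% and 21.9% with DKI, and 10.1% and 11.8% with loxapine. With pizotifen the shares were 8.86% and 9.07%, with meclizine 13.1% and 13.6%, and with sodium butyrate 19.6% and 17.8%. Of 15 other BCL2 family genes, 12 were in the table and 8 were tested. With cyproheptadine, 5 of the 8 rose and 2 fell (median 0.25, where the median of all genes was 0.00). Those that rose include the BH3-only gene Pmaip1, encoding NOXA (0.54, adjusted p = 8.03e-07), the effector Bax (0.40, adjusted p = 0.00335) and the mitophagy receptor Bnip3 (0.80, adjusted p = 2.91e-06). Bax was also called higher with DKI (0.39, adjusted p = 0.00322), meclizine (0.35, adjusted p = 0.0114) and cysteamine (0.34, adjusted p = 0.0438). It was not called with loxapine (0.26, adjusted p = 0.0705) or pizotifen (0.23, adjusted p = 0.136). Bnip3 also rose with pizotifen (0.48, adjusted p = 0.00427) and loxapine (0.35, adjusted p = 0.0323). It was not called with meclizine (0.19, adjusted p = 0.27) or DKI (-0.26, adjusted p = 0.0918).

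With DKI, 3 of these 8 rose and 2 fell, and the BH3-only gene Bbc3, encoding PUMA, was higher by 0.42 (adjusted p = 0.00141). With loxapine and with meclizine 2 rose and 1 fell, with pizotifen 3 rose and 0 fell, and with sodium butyrate 0 rose and 1 fell. Pmaip1 rose with each Group A and Group B compound, by 0.39 with loxapine (adjusted p = 0.000288), 0.46 with pizotifen (adjusted p = 3.46e-05), 0.43 with DKI (adjusted p = 1.59e-05) and 0.23 with meclizine (adjusted p = 0.0181). In STHdhQ7, 3 were higher and 3 lower than in STHdhQ111 (29.2% and 26.6% of all genes), led by the effector-like gene Bok, at 1.36 (adjusted p = 1.71e-15).

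Of 19 genes that act downstream at the mitochondrion and on caspases, all were tested. With cyproheptadine, 4 rose and 6 fell, with DKI 4 and 8, with meclizine 3 and 6, with loxapine 4 and 3, with pizotifen 2 and 3, and with sodium butyrate 5 and 3. In the same order, 35.6%, 42.3%, 26.8%, 21.9%, 17.9% and 37.5% of all tested genes were called in either direction. Cycs, encoding cytochrome c, rose by 0.51 with cyproheptadine (adjusted p = 1.11e-05) and 0.41 with DKI (adjusted p = 0.00012). Apaf1, the scaffold that activates caspase-9, fell with DKI by 0.42 (adjusted p = 8.97e-06) and with meclizine by 0.29 (adjusted p = 0.00206). In STHdhQ7, 3 were higher and 7 lower (29.2% and 26.6% of all genes). Those lower included the inhibitors of apoptosis Birc3 (-1.28, adjusted p = 9.65e-18) and Xiap (-0.59, adjusted p = 4.42e-08) and the initiator Casp9 (-0.53, adjusted p = 1.04e-08). Another inhibitor of apoptosis, Birc6, was higher (0.58, adjusted p = 3.15e-08). The list medians lay between -0.09 and 0.01 in these comparisons, and directions were mixed.

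Of 15 genes known to regulate family members, 14 were tested. With cyproheptadine, 3 rose and 3 fell, with DKI 3 and 3, with loxapine 3 and 5, with pizotifen 2 and 3, and with meclizine 2 and 3. These counts stand beside 35.6%, 42.3%, 21.9%, 17.9% and 26.8% of all tested genes called with the same compounds. The stress factors Atf4 and Ddit3 rose with all 5 compounds. Atf4 rose by 1.30 with cyproheptadine, 0.83 with loxapine, 0.94 with pizotifen, 1.32 with DKI and 1.20 with meclizine (largest adjusted p = 5.69e-08). Ddit3 rose by 0.95, 0.55, 0.72, 1.90 and 1.54 in the same order (largest adjusted p = 0.00152) and was lower in Group A than in Group B by 0.98 (adjusted p = 1.48e-12). Foxo1, of the FOXO factors that act on Bcl2l11, fell by 0.36 with loxapine (adjusted p = 0.000504) and by 0.28 with meclizine (adjusted p = 0.00433). In STHdhQ7, 5 were higher and 1 lower (29.2% and 26.6% of all genes), with Jun at 1.01 (adjusted p = 1.83e-09).

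The genes whose condition means were most like those of each member were also identified, by Pearson r over the 16 conditions. Bcl2l11 was most like Tshz1 (r = 0.968) and Btbd2 (r = 0.951), and Bmf most like Prelp (r = 0.924) and Fyco1 (r = 0.924). Mcl1 was most like Csrnp1 (r = 0.936) and Maff (r = 0.915), which are immediate early or stress genes. Bcl2 was most like Pard6g (r = 0.903) and Zfp365 (r = 0.898), and Bcl2l1 most like Mdm2 (r = 0.901) and Robo3 (r = 0.895). Without STHdhQ7 these fell to 0.812 and 0.809 for Bcl2 and to 0.791 and 0.744 for Bcl2l1, whose largest difference is that between the lines. For Bcl2l2 the genes were Aven (r = 0.936), an inhibitor of apoptosis, and Secisbp2 (r = 0.91), for Bak1 Sfpq (r = 0.903), for Bid Gmps (r = 0.887) and Bnip2 (r = 0.886), and for Bad Anapc13 (r = 0.938) and Elmo3 (r = 0.925). These are among the highest of 13409 correlations each and were not tested.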

How the data were processed

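RNA was measured by single-end, poly(A)-selected RNA-Seq. The authors trimmed reads with Trimmomatic 0.36 and quantified them with RSEM on the GRCm38.p5 transcriptome. The table deposited by the authors holds 1 normalized log2 value per gene and sample. The transformation is not named, and values of low genes hardly vary. Whether this understates their differences was not tested. Linear sums differed by up to 1.11 times between samples. Read depth is unknown, and no counting error is given. Values were used as deposited. No column was left unmapped.

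Genes with a symbol and a mean of at least 1 were tested (13409 of 18178). In R 4.3.3, limma 3.58.1 fitted a model of 16 conditions and the collection day to 48 samples (30 residual degrees of freedom), with a variance trend. Two-sided p-values were Benjamini-Hochberg adjusted within each comparison and called under 0.05. The script was tested on simulated data. The members and lists were chosen with earlier results of these data known. All 10 members are named, sample values are given where a call reached 0.5, other tested members by range or where called, up to 4 genes per list, and the 2 most similar genes, of which 1 for Bak1 is not reported here. Within replicate numbers, which match the collection day except in 2 samples, deviations from condition means had a mean correlation of -0.0487, and 9 of 120 pairs of conditions exceeded 0.1. The 2 samples are replicate 1 of cyproheptadine and replicate 1 of DKI, both labelled day 3, so neither compound had a day 1 sample. Exon overlaps are from GENCODE for GRCm38. Figures used matplotlib 3.10.9.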

Additional observations from a re-analysis of the deposited data

Results flagged for a closer look

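Differences between compounds under the same vehicle control were tested directly, and 8 passed the threshold. Group A against Group B gave 3 of 9 members, beside 41.3% of all tested genes. Cyproheptadine and loxapine gave 1 of 9 (10.5% of all genes), cyproheptadine and meclizine 3 of 9 (18.8%), and DKI and meclizine 1 of 9 (8.11%). With 9 genes these counts alone do not set the family apart. Between Group A and Group B the differences were -0.16 for Bcl2, 0.19 for Mcl1 and 0.13 for Bak1. Cyproheptadine minus loxapine was -0.42 for Bmf. Cyproheptadine minus meclizine was 0.28 for Mcl1, -0.29 for Bcl2l11 and -0.33 for Bmf. DKI minus meclizine was 0.27 for Bcl2l1. All are log2 differences, and the samples they rest on are named beside them above.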

How the results depend on the processing

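Other filters, genes without a symbol, no collection day term, a replicate block, the collection time, only the compared samples, median centring and no variance trend were tried, and each sample was left out in turn. The lines gave 5 called members, 4 to 6 across the other fits, and 4 to 6 with a sample left out. The 14 compounds gave 26 calls, 22 to 28 across the other fits and 21 to 30 with a sample left out. Group A against Group B gave 3 in every other fit, although the fit to the compared samples alone had Bcl2l11 in place of Bcl2, and 2 to 4 with a sample left out. The 3 pairs at 10 µM gave 5 calls, which became 1 when only the compared samples were fitted, and 3 to 5 with a sample left out (3 without meclizine replicate 3). With the replicate number as a block the counts were 5, 26, 3 and 6, and with no block 5, 28, 3 and 6. Because the numbers match the collection day in all but 2 samples, pairing by number could not be told apart from the day. No single-gene call reversed. Of 39 such calls, 24 kept their call in every run, among them Bmf with the 5 compounds of Groups A and B. In fits to the compared samples alone, which have fewer samples to estimate the spread, calls of Bad between the lines, of Bak1 with DKI and TSA, of Bid with DKI, of Bcl2l11 with TSA and of Bcl2 between Groups A and B were lost, besides those of the pairs. The Bmf call between cyproheptadine and meclizine was also lost with no filter (adjusted p = 0.0513).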
